A study of Mus musculus with 6 samples.

Results

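Spliced loci in gene deserts, far from annotated genes by the rule below, were examined in mouse embryonic stem (ES) cells and embryoid bodies. The ES cells were undifferentiated, and the embryoid bodies were made from them. A locus was taken when all of its assembled transcripts were classed as intergenic, none carried a protein identifier, and its span lay more than 50 kb from every locus holding a transcript that matched the annotation used by the authors. Chromosomes X and Y were left out. The rule found 434 loci, out of 18420 in the count table and out of 2038 intergenic loci on autosomes, of which 1604 lay within 50 kb of an annotated locus. Of the 434, 6 lay within 50 kb of a locus that was not classed as intergenic but held no matching transcript, and 3 overlapped one. The desert loci were on the plus strand in 234 cases and on the minus strand in 200, and were spread over 19 chromosomes, from 8 on chromosome 19 to 40 on chromosome 10.

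The libraries came from an ES cell line that carries a bacterial artificial chromosome with a green fluorescent reporter of the heart progenitor gene Nkx2.5. At day 0 the cells were undifferentiated, grown with the cytokine LIF on gelatin or on feeder layers of mouse embryonic fibroblasts. At day 6 they were embryoid bodies, formed in hanging drops to start cardiac differentiation. Each stage had 3 libraries of poly(A)-selected RNA, biological replicates per the series' design text, and both stages carried the reporter and came from 1 line. The strain tag reads C57BL/6J, whereas the growth protocol names 129/OlaHsd and the subline E14Tg2A.4. Libraries held 106306699 to 114092201 counted reads. All positions of loci are those of the authors' assembly on mm9.

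ES cells transcribe many spliced, polyadenylated RNAs that code for no known protein, and such long intergenic noncoding RNAs tend to have few exons, low levels and expression limited to a cell type or stage. Deserts often surround genes of transcription factors and signals, and hold distal enhancers, many of which are themselves transcribed. Exit from the pluripotent state replaces 1 set of these transcripts with another as mesoderm and heart progenitors form.

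The desert holds only against the annotation in the authors' file. Comparing intron and exon lengths with the later GENCODE M21 annotation (on GRCm38) gave a gene for 35 of the 236 desert loci with at least 3 exons, 34 genes in all. Of the 35 loci, 27 matched a lincRNA, 4 a processed transcript, 3 a gene annotated as coding (Nav3, Gm11733 and Gm28710) and 1 a pseudogene (Gm11784). Of the 35, 29 could be tested between the stages and 11 changed (37.9%, against 44% of all loci tested), 4 up and 7 down. Of these 11, 5 reached 10 normalized counts at one stage alone, so that they had to differ to enter the test. Among the other 24 tested loci 6 were called, 2 up and 4 down. The matching share was 41.4% among all loci with at least 10 counts in a library of each stage. These shares were not tested against each other. The internal exons that carried the match are shown for the 3 largest rises (Rubie, 4930431F12Rik and D330037F02Rik) and the 4 largest falls (Gm35940, Gm47336, Gm29895 and Gm32885), chosen after their values were seen, because they tie a desert locus to a known RNA. The matched exon is in capitals and the 20 bases on either side, in lower case, are the ends of the adjoining exons, so that both splice junctions can be read. They are GENCODE M21 transcript sequences, 5′ to 3′, not reads of these libraries.
Rubie: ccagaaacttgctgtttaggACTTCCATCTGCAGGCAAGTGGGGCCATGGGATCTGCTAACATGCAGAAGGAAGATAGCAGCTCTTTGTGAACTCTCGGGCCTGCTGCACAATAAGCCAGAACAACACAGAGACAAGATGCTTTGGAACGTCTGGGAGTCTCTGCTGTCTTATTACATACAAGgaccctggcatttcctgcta
4930431F12Rik: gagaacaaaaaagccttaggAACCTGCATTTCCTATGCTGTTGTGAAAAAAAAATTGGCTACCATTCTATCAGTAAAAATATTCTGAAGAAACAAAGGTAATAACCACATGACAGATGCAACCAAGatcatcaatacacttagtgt
D330037F02Rik: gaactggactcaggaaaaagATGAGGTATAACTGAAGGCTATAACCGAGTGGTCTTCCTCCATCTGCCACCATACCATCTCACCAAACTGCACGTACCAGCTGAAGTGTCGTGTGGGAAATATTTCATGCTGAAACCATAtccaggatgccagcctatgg
Gm35940: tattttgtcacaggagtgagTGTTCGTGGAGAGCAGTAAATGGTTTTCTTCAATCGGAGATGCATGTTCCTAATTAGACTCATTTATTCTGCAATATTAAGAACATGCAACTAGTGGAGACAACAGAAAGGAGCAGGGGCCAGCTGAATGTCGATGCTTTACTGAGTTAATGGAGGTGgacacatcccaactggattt
Gm47336: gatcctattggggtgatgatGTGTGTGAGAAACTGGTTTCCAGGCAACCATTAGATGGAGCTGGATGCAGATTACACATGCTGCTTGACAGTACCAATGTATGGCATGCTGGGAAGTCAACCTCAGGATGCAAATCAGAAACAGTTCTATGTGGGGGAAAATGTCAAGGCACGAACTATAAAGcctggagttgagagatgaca
Gm29895: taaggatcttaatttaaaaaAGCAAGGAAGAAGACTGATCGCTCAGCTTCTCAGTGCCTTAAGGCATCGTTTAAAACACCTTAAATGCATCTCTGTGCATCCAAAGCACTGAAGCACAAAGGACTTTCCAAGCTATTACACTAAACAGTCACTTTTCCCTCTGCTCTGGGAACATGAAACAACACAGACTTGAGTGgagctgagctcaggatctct
Gm32885: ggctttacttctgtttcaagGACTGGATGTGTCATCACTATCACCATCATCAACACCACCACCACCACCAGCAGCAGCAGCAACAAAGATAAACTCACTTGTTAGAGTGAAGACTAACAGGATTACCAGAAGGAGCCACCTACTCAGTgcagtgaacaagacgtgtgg
On GRCm38 these exons lie at chr14:46571087-46571249 (minus strand, 163 nt), chr5:44977057-44977162 (plus, 106 nt), chr9:115671136-115671255 (plus, 120 nt), chr9:41820260-41820417 (plus, 158 nt), chr13:119278603-119278765 (minus, 163 nt), chr8:78050800-78050975 (plus, 176 nt) and chr15:97161955-97162082 (minus, 128 nt), in the same order. The exon of Rubie sits between introns of 818 and 4429 nt, and that of Gm32885 between introns of 559 and 4420 nt.

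The desert loci were short chains of few exons. Their spans had a median of 8062.5 nt (294 to 291562 nt) and their exons together a median of 2909 nt (180 to 59119 nt). The longest chain had 2 exons in 198 loci (45.6%), 3 in 121, 4 in 67 and 5 or more in 48, with at most 10. The assembly gave 1 transcript for 175 loci, and in 28 loci the exons of different transcripts together covered the whole span. The median distance to the nearest annotated locus was 95.03 kb, with 18 loci over 500 kb away and 7 over 1000 kb. Intergenic loci nearer to genes were much alike, with a median exonic length of 3238 nt and 55.5% with 2 exons, whereas annotated coding loci had medians of 7101 nt and 10 exons. Exonic bases were shared with another locus for over 10% of the length in 22 desert loci and for over 50% in 11, and since the counting of such reads is unknown here these levels are uncertain.

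**Figure D1:**
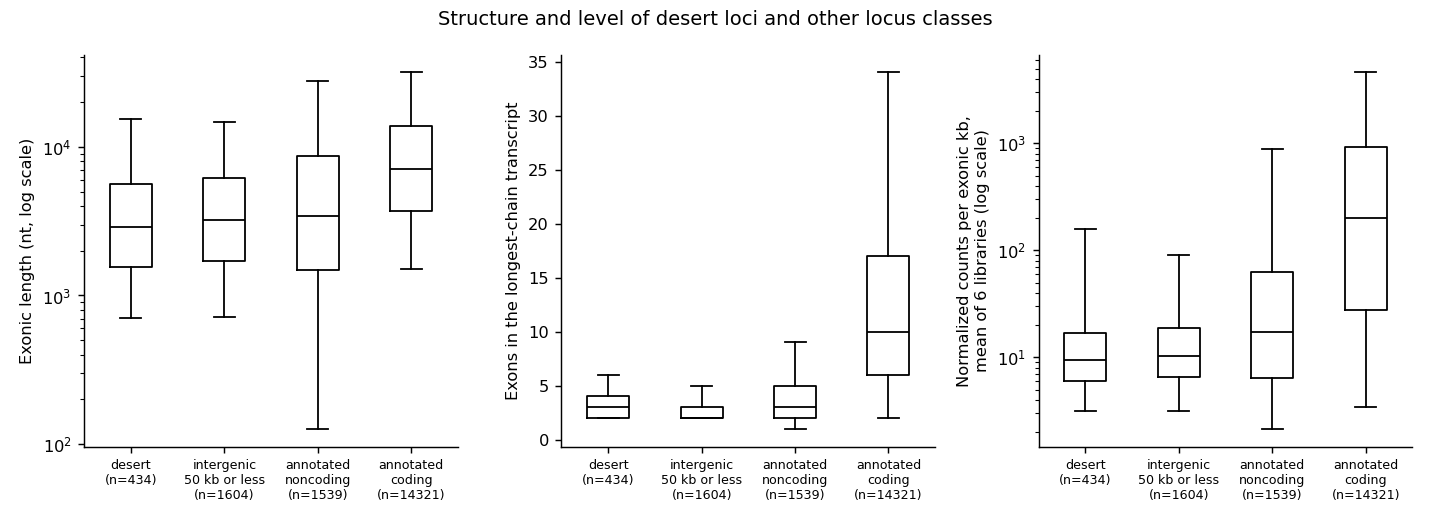
Exonic length in nt (log axis), number of exons, and mean normalized counts per exonic kilobase (log axis) for desert loci, intergenic loci within 50 kb of an annotated locus, annotated noncoding loci and annotated coding loci. Boxes span the quartiles, lines mark medians and whiskers the 5th and 95th percentiles over loci; desert loci had a median of 9.43 counts per kb, and coding loci 200.6.

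Levels were low. The mean over the 6 libraries had a median of 25.2 normalized counts (4.83 to 8540.2), and 89 loci were under 10, 248 from 10 to 100, 78 from 100 to 1000 and 19 at 1000 or more. Per exonic kilobase the median was 9.43 for desert loci, 10.3 for nearer intergenic loci, 17.2 for annotated noncoding loci and 200.6 for coding loci. The desert loci together held 0.110% ± 0.006 (SD, n = 3) of all normalized counts at day 0, and 0.0675% ± 0.0037 (SD, n = 3) at day 6, and the libraries of the stages did not overlap. The 5 loci with the most counts took 35.3% of this total. Without them the day 0 libraries summed to 75858 ± 5591 normalized counts and the day 6 libraries to 51100 ± 1894 (SD, n = 3 each). The share held by intergenic loci within 50 kb of a gene also fell. It went from 0.291% ± 0.028 to 0.225% ± 0.0085 of all normalized counts (SD, n = 3 each), again without overlap.

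As ES cells formed embryoid bodies, the desert loci that changed mostly fell. A locus was tested if 3 or more libraries reached 10 normalized counts. Of the 324 such loci, 183 changed (56.5%, against 44% of all 17145 loci tested), 48 of them higher at day 6 (14.8%, against 22.2%) and 135 lower (41.7%, against 21.8%). Calls used limma on log2(normalized count + 1) with a Benjamini-Hochberg adjusted p under 0.05, and p-values measure the spread between these libraries. The median log2 change was -1.05 over the tested desert loci and 0.02 over all tested loci, and 46 of the loci called higher and 133 of those called lower moved by 2-fold or more.

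**Figure D2:**
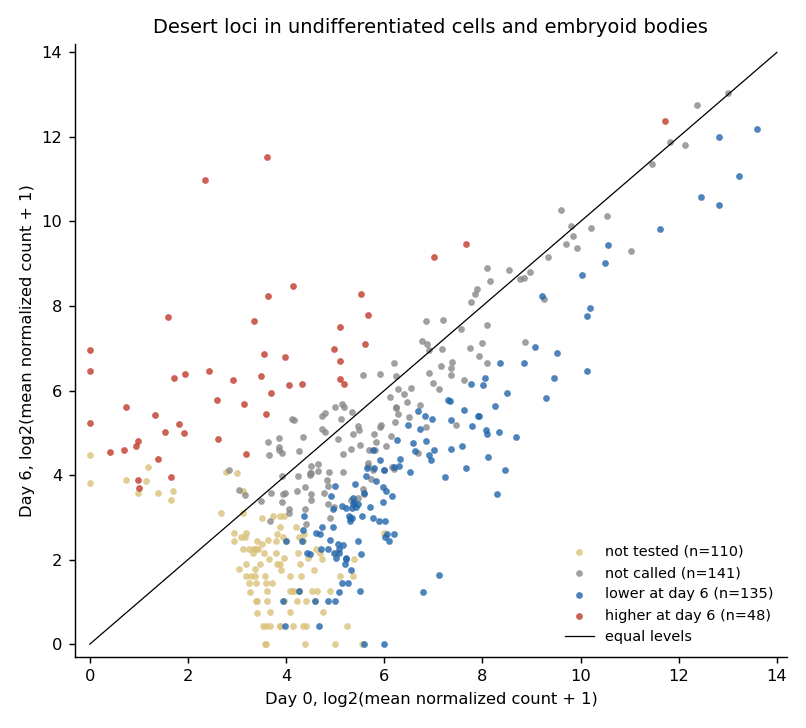
Mean normalized count of each of the 434 desert loci at day 0 and at day 6, both as log2(mean + 1), coloured by call. Below the line of equal levels lie the 135 loci called lower at day 6, above it the 48 called higher; 110 loci were not tested.

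Among loci with counts at both stages the share called was near that of all loci, and the direction still leaned to falls. Among tested desert loci 48 reached 10 counts in day 0 libraries alone and 24 in day 6 libraries alone; these had to differ to enter the test, and all were called. The other 252 had at least 10 counts in a library of each stage, and 111 of them changed (44.0%, against 41.4% of the 16314 such loci of the table). Of these 24 were higher (9.52%, against 21.4%) and 87 were lower (34.5%, against 19.97%). The stages did not overlap in 143 of the 252 (56.7%, against 55.1% of all such loci), with day 0 above day 6 in 107 and below it in 36. Over all 324 tested loci, where the entry rule fixed 72, the count was 215 (66.4%, against 57.3% of all tested loci). Of the 110 desert loci left untested, 97 had the higher mean at day 0, and 98 reached 10 counts in a day 0 library against 14 in a day 6 library. With no filter, 241 of the 434 changed (55.5%, against 42.8% of all 18420 loci), 56 higher and 185 lower.

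Day 0 libraries differed more among themselves than day 6 libraries. The median SD of a desert locus on the log2 scale was 0.73 at day 0 and 0.35 at day 6, against 0.40 and 0.14 over all loci. Intergenic loci within 50 kb of a gene were close to the desert loci, at 0.64 and 0.31. The day 0 values of desert loci spread over more than 4-fold in 124 loci and the day 6 values in 38. Replicate 3 was the highest day 0 library for 175 loci, replicate 2 for 149 and replicate 1 for 110. Leaving out 1 library at a time gave 146 (without day 6 replicate 2) to 201 calls (without day 0 replicate 1, and also without day 0 replicate 2), 106 to 147 of them lower. Without day 6 replicate 2 that was 45.1% of tested desert loci, against 30.0% of all tested loci. Without day 0 replicate 1 it was 62.0% against 49.3%, and without day 0 replicate 2 62.0% against 51.9%. Of 6 listed markers of ES cells 5 were found. They summed to 174948 to 243409 normalized counts at day 0 and to 30269 to 40064 at day 6. Zfp42, Esrrb and Klf4 were lower, and Nanog was not called (log2 change -0.99, limma's adjusted p = 0.0799). Tdgf1 was also called lower, but it entered the test through day 0 alone and had to differ to be tested. Zfp42, Esrrb and Klf4 carried nearly all of these sums. Nanog was at only 135 to 281 counts at day 0 and 66.6 to 132 at day 6. Tdgf1 was at 11.3 to 17.9 and 3.04 to 6.26. Whether the loci matched to Nanog and Tdgf1 hold all reads of these genes was not tested. Of 8 cardiac markers 5 were found, with sums of 1201 to 1974 at day 0 and 6797 to 8876 at day 6; Nkx2-5, Tbx5, Isl1 and Tnnt2 rose and Myh6 fell. All 6 fibroblast markers, which feeder cells also express, were found above 0 in every library. They summed to 51195 in day 0 replicate 2, 100750 in replicate 1 and 217493 in replicate 3, and to 107844 to 149294 at day 6, with Postn higher and Col1a2 and Thy1 lower. The part of feeder RNA in the day 0 levels of desert loci was not tested. In such bulk libraries fewer cells with a transcript and less of it per cell cannot be told apart.

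By distance, calls were counted among loci with at least 10 normalized counts in a library of each stage, since the others had to differ to enter the test. At 50 to 100 kb from a gene 53 of 135 such loci changed (39.3%, 11 higher and 42 lower), at 100 to 200 kb 31 of 70 (44.3%, 5 and 26), and beyond 200 kb 27 of 47 (57.4%, 8 and 19). Among other intergenic loci 33.2% changed within 5 kb (71 higher and 116 lower of 564) and 44.0% at 5 to 50 kb (48 and 211 of 588). Lower calls outnumbered higher ones in each of these bins, and the shares were not tested against each other. By structure, 38 of 102 such desert loci with 2 exons changed (12 higher, 26 lower), 34 of 63 with 3 exons (4 and 30), 21 of 50 with 4 (4 and 17) and 18 of 37 with 5 or more (4 and 14).

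**Figure D3:**
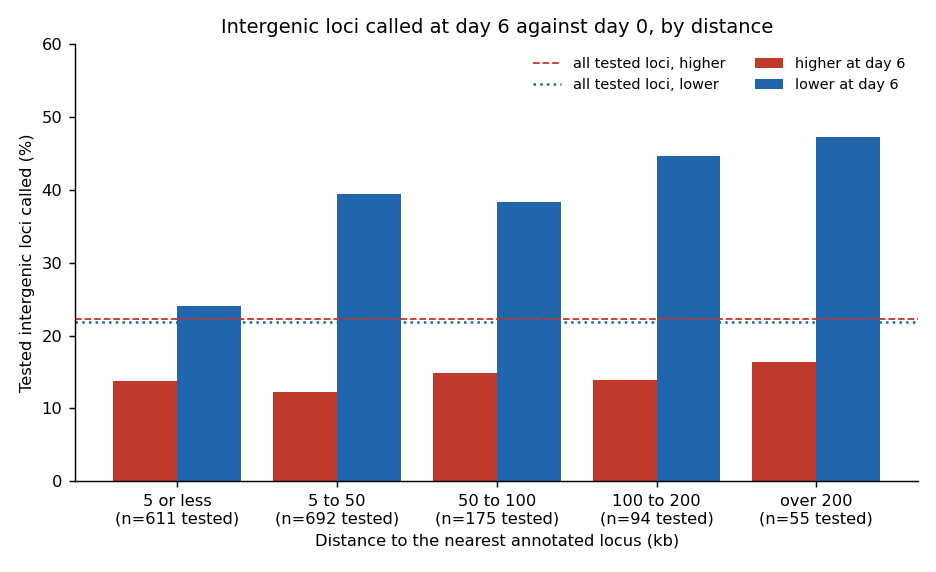
Share of tested intergenic loci called higher or lower at day 6, in percent, by distance to the nearest annotated locus in kb. The number tested is under each pair of bars. Loci that reached 10 counts at one stage alone, and so had to differ to be tested, are included. Dashed and dotted lines mark the 22.2% higher and 21.8% lower among all tested loci; bars of lower calls exceed the dotted line in every bin, from 24.1% within 5 kb to 47.3% beyond 200 kb.

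By the limits set, 9 desert loci were restricted to a stage, under 10 normalized counts in all 3 libraries of one stage and at 50 or more in all 3 of the other. Of the 434 desert loci 2 were restricted to day 0 (0.461%), against 60 of the 18420 loci of the table (0.326%), and 7 to day 6 (1.61%), against 103 (0.559%). The shares were not tested against each other. They were chosen on these values, so the values are a description without a test.

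The locus with the largest change was Rubie, a lincRNA named for its place upstream of Bmp4, a signal of mesoderm. It has up to 5 exons at chr14:47187007-47195914, minus strand, between Gm15217 and Cdkn3 and 172 kb from the nearer. It had 6.11, 2.07 and 3.99 normalized counts at day 0, then 2378, 2167 and 1527 in embryoid bodies, with means of 4.06 ± 2.02 and 2024 ± 443 (SD, n = 3 each). Every day 6 library lay far above every day 0 one, and the ratio of means was 499-fold, with a 95% exact binomial interval from the pooled reads of 284 to 913 that covers counting error only. Both flanking genes rose as well, Gm15217 by 2.37 (SE 0.40, limma's adjusted p = 0.00195) and Cdkn3, a cell cycle phosphatase, by 1.16 (SE 0.22, limma's adjusted p = 0.00308) on the log2 scale.

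A locus at chr8:123339896-123356909 on the minus strand lies between Irf8, a transcription factor of myeloid cells, and Fendrr, a noncoding RNA of lateral mesoderm that is needed for heart and body wall. It had 0.872, 4.14 and 0.997 normalized counts at day 0 and 227, 247 and 162 at day 6, a ratio of 106-fold (interval 50.4 to 302). The stages lay far apart, with no day 0 library above 4.14. Fendrr, 222 kb away, rose from 161 ± 63.2 to 10964 ± 3835 normalized counts (SD, n = 3 each; log2 change 6.09, SE 0.36, limma's adjusted p = 1.74e-05). Irf8, at 59.3 kb, was at 533 ± 489 and 144 ± 17.5 and did not pass the test (limma's adjusted p = 0.102).

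At a pair of loci all day 0 libraries were at 0. The locus at chr1:9427261-9428915, on the plus strand between Sntg1 and Adhfe1, had 114, 154 and 100.2 normalized counts at day 6, at least 42.2-fold above a floor of 3 reads per day 0 library. The locus at chr18:83600154-83608386, on the plus strand beside 4921531P14Rik, had 70.0, 117 and 74.1 at day 6, at least 29.9-fold above that floor. No library of day 0 thus overlapped a library of day 6 for either locus.

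The other loci restricted to day 6 were less abundant. The locus at chr18:9527746-9553534 beside Ccny, a cyclin, had 6.98, 2.07 and 3.99 normalized counts at day 0 and 114, 82.0 and 64.7 at day 6, a ratio of 19.96 (interval 11.3 to 35.9). At chr10:83351127-83360178, beside 1500009L16Rik, the values were 3.49, 1.04 and 3.99 and then 95.3, 95.3 and 57.4 (29.1-fold, interval 14.9 to 63.5). At chr16:15101516-15114351, between Efcab1 and Ube2v2, they were 0.872, 1.04 and 4.99 and then 79.1, 73.8 and 79.3 (33.7-fold, interval 16.4 to 86.6). In each case no library of day 0 came near the lowest of day 6. The neighbour 1500009L16Rik went the other way, falling by 1.65 on the log2 scale (SE 0.17, limma's adjusted p = 0.000148).

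Both loci restricted to day 0 have a flanking gene that also fell. Gm35940, at chr9:41624151-41644655 on the plus strand with up to 4 exons, had 87.2, 114 and 210.4 normalized counts at day 0 and 0, 1.03 and 5.22 at day 6, a ratio of 65.9 (interval 30.0 to 180.2). Sorl1, a sorting receptor gene 128 kb away, fell by 0.96 on the log2 scale (SE 0.27, limma's adjusted p = 0.0211). The locus at chr10:21479004-21505970 (minus strand, up to 3 exons) had 68.9, 133 and 129 at day 0 and 2.03, 1.03 and 1.04 at day 6, a ratio of 80.6 (interval 30.5 to 291). It lies 95.8 kb from Sgk1, a kinase of ion transport and survival signals, which fell from 54379 ± 7657 to 11538 ± 1329 normalized counts (SD, n = 3 each; log2 change -2.23, SE 0.16, limma's adjusted p = 3.25e-05). The count of loci restricted to day 0 became 7 when day 0 replicate 1 was left out and 4 when day 0 replicate 2 was.

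**Figure D4:**
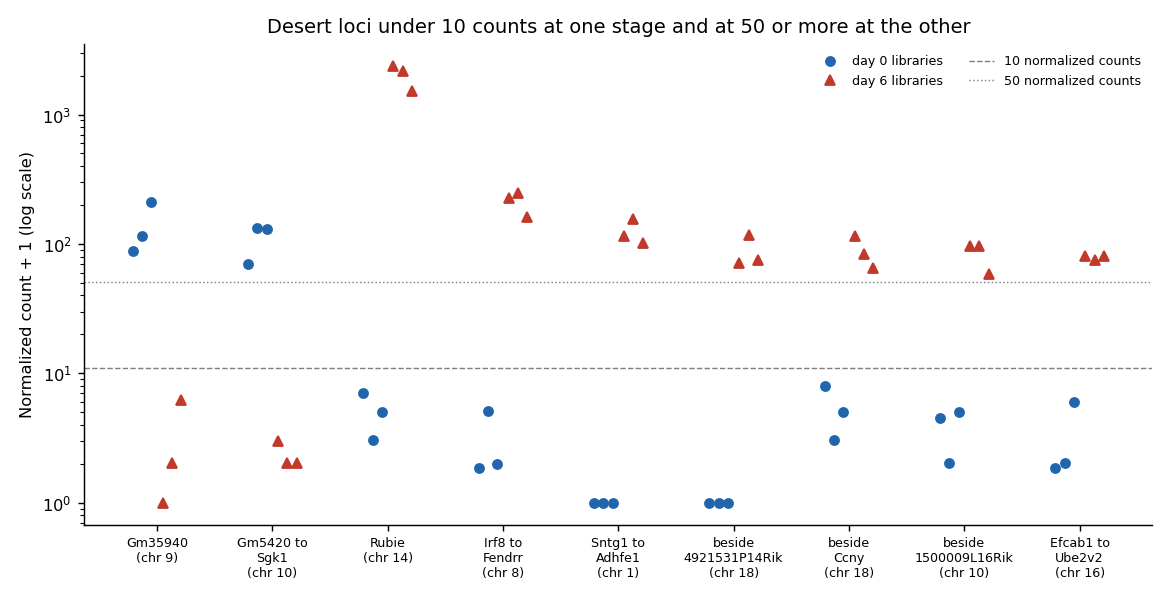
Normalized count + 1 (log axis) in each day 0 library (circles) and day 6 library (triangles) for the 9 desert loci restricted to a stage, labelled by their matched or neighbouring genes. Lines mark 10 and 50 normalized counts, the limits used; Rubie reached 2378 at day 6, and 2 loci were at 0 in every day 0 library.

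Further large changes lay outside these limits, and were picked from the 9 largest called. The locus at chr1:5286117-5303987, on the plus strand 275 kb from Oprk1, a kappa opioid receptor, had 5.23, 19.7 and 8.97 normalized counts at day 0 and 2903, 2949 and 2931 at day 6. Its log2 change was 8.07 (SE 0.43, limma's adjusted p = 1.06e-05), and 19.7 counts in day 0 replicate 2 kept it from being restricted to day 6. Its exons cover the whole span of 17871 nt, which leaves no intron in the union of its 2 transcripts. Oprk1 rose by 2.73 (SE 0.58, limma's adjusted p = 0.00619). A pair of loci had reads at day 0 alone: the one at chr5:53749710-53763022, between Smim20 and Rbpj, the transcription factor of Notch signalling, had 55.8, 12.4 and 119.7 counts, and the one at chr14:97685830-97802604, between Klhl1 and Dach1, had 27.04, 31.1 and 82.8. With no read at day 6 they stood at least 20.3-fold and 15.2-fold above a floor of 3 reads per day 6 library. Having reached 10 counts at day 0 alone, they had to differ to be tested, and their p-values are not given. Replicate 3 was the highest day 0 library for both. Rbpj fell by 1.42 (SE 0.26, limma's adjusted p = 0.00311), while Dach1 was at 207 ± 64.0 and 343 ± 80.8 normalized counts and did not pass (limma's adjusted p = 0.107). In all, 5 desert loci were at 0 throughout day 0 and 7 throughout day 6.

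Among desert loci at 10 normalized counts or more in every library, the largest rises were an overlapping pair on chromosome 6 and a locus beside Bambi. The pair lies at chr6:3127575-3143646 (minus strand) and chr6:3131957-3152369 (plus strand). The first rose from 68.9, 29.0 and 36.9 to 348, 311 and 281 normalized counts (log2 change 2.86, SE 0.37, limma's adjusted p = 0.000517), and the second from 61.1, 13.5 and 24.9 to 266, 151 and 126 (2.60, SE 0.56, limma's adjusted p = 0.00618). They share 10.7% and 15.1% of their exonic bases, and reads there cannot be assigned to a strand if counting ignored it. The locus at chr18:3765144-3839649, with up to 8 exons, lies 248 kb from Bambi, which encodes a decoy receptor of TGF-beta and BMP signals, and 326 kb from Lyzl1. It rose from 90.7, 18.6 and 39.9 to 194, 225 and 243 (2.40, SE 0.53, limma's adjusted p = 0.00687). Bambi rose from 1347 ± 125 to 25459 ± 3872 normalized counts (SD, n = 3 each; 4.23, SE 0.16, limma's adjusted p = 3.23e-06).

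The 3 largest falls among such loci were each larger than the largest rise. At chr4:152459492-152464130 (minus strand, up to 2 exons) the values were 1499.6, 923 and 940.3 normalized counts at day 0 and 101, 63.6 and 94.99 at day 6 (log2 change -3.67, SE 0.31, limma's adjusted p = 7.24e-05). At chr2:157498456-157509046 (plus strand, up to 7 exons), between Blcap and Ctnnbl1, they were 721, 181 and 324 and then 32.4, 20.5 and 33.4 (-3.59, SE 0.50, limma's adjusted p = 0.00081). At chr19:6664210-6677959 (minus strand, up to 4 exons), between Nrxn2, a synaptic adhesion gene, and Rps6ka4, a kinase, they were 150.0, 164 and 518 and then 19.3, 26.7 and 15.7 (-3.48, SE 0.51, limma's adjusted p = 0.000991). All 3 kept the stages apart despite the spread at day 0. Nrxn2 fell by 1.74 (SE 0.22, limma's adjusted p = 0.000477) and Rps6ka4 by 1.27 (SE 0.21, limma's adjusted p = 0.00189), while Ctnnbl1 was at 12178 ± 919.9 and 11011 ± 665 normalized counts and did not pass (limma's adjusted p = 0.393).

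The 5 loci with the most counts were expressed at both stages, 3 of them lower at day 6 and 2, among the short loci described next, not called. The most abundant at day 0, at chr9:118300202-118315383 (minus strand, up to 4 exons), lies 69.9 kb from Eomes, a T-box factor of early mesoderm and endoderm. It had 12148, 19275 and 5814 normalized counts at day 0 and 4802, 3397 and 5806 at day 6, so that day 0 replicate 3 lay only just above the highest day 6 library. It fell by 1.28 (SE 0.40, limma's adjusted p = 0.0321), a call lost without day 0 replicate 1 (0.0739), day 0 replicate 2 (0.0675), day 6 replicate 1 (0.0703) or day 6 replicate 2 (0.108). Eomes was at 2.67 ± 1.66 and 21.9 ± 4.00 normalized counts, a rise of 2.75 (SE 0.50). Since Eomes entered the test through day 6 alone, it had to differ to be tested, and its p-value is not given. Gm32885, at chr15:96987214-96998046 (minus strand, up to 5 exons), fell from 8056, 10071 and 10795 to 1977, 2050.3 and 2404 (-2.16, SE 0.17, limma's adjusted p = 4.79e-05). Slc38a4, an amino acid transporter 101 kb away, rose by 1.83 (SE 0.21, limma's adjusted p = 0.00027). The locus at chr16:61376896-61379562 on the plus strand, 772 kb from Epha6, an ephrin receptor, fell from 5529.9, 8283 and 7889 to 4065, 3979.6 and 4157 (-0.81, SE 0.18, limma's adjusted p = 0.00729).

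Per exonic kilobase, the highest levels were in 4 short loci of 2 exons, none of which was called. The highest, at chr1:130417415-130417748 with 232 exonic nt, had 26444 normalized counts per kb. Its values were 4924, 6221 and 4808 at day 0 and 7613, 6596 and 6649 at day 6 (log2 change 0.39, SE 0.16, limma's adjusted p = 0.0715), and it was called without day 0 replicate 2 (limma's adjusted p = 0.00986). The others lie on chromosome 5, at chr5:40189426-40190816 (6008 per kb), chr5:92189639-92190486 (5162 per kb, 134 kb from Parm1) and chr5:41733333-41733998 (4774 per kb). At the first of these the exons cover the whole span of 1391 nt, which leaves no intron in the union of its 2 transcripts. Its day 0 libraries ran from 3156 to 13531, around the day 6 range of 7498 to 9796. At the other two loci the stages also overlapped, at 2840.4 to 4391 and 3613 to 3981 counts, and at 2603 to 2938 and 2390.3 to 2991.

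The 3 loci with the most exons did not pass limma's test, and 2 of them were called by the count models. At chr16:9132620-9258436, with up to 10 exons over 126 kb between 1810013L24Rik and Grin2a, a glutamate receptor subunit, the values were 959.6, 4198 and 1117 normalized counts at day 0 and 634, 539 and 706 at day 6 (log2 change -1.41, SE 0.51, limma's adjusted p = 0.0537). All day 0 values lay above all day 6 ones. It was called without day 0 replicate 2 (-0.73, limma's adjusted p = 0.0184) and without day 0 replicate 1 (-1.80, limma's adjusted p = 0.0237). DESeq2 (-1.75, adjusted p = 0.00215) and edgeR (-1.79, adjusted p = 0.0272) on the recovered reads also called it. At chr14:32737033-32764350, also with up to 10 exons, the means were 228 ± 43.5 and 308 ± 45.1 (SD, n = 3 each; limma's adjusted p = 0.223). At chr4:13022458-13044534, with up to 9, the day 0 values of 30.5, 361 and 135 overlapped the 23.3, 35.9 and 47.0 of day 6 (limma's adjusted p = 0.112, and 0.00501 without day 0 replicate 1). DESeq2 (adjusted p = 0.0047) and edgeR (adjusted p = 0.0392) called it lower.

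The longest span, at chr11:12480725-12772286, covered 292 kb with only 2307 exonic nt, 116 kb from Cobl, an actin nucleator. It had 34.0, 16.6 and 40.9 normalized counts at day 0 and 2.03, 2.05 and 6.26 at day 6 (log2 change -2.86, SE 0.54), and entered the test through day 0 alone. Cobl fell by 2.49 (SE 0.29, limma's adjusted p = 0.000319). The next longest, of 239 kb at chr10:109653771-109892868, matched Nav3 in GENCODE and was too low to test, at 2.24 ± 1.10 and 11.4 ± 5.91 (SD, n = 3 each). The annotated locus 216 kb to its left also matched Nav3, so by these matches both belong to the same gene. The most isolated locus, 9330185C12Rik at chr1:115785776-115860772, lies 1705 kb from any annotated locus, and its stages overlapped at 1118 to 1793 and 929 to 1491 (limma's adjusted p = 0.251). The locus at chr5:56015405-56017311, 1503 kb out, rose from 2703, 4241 and 3185 to 5098, 5550.2 and 5200.2 (0.67, SE 0.19, limma's adjusted p = 0.0203). The call was lost without day 0 replicate 3 (0.0615) or any of the day 6 replicates 1, 2 and 3 (0.0636, 0.0872 and 0.0647), and with quantile normalization (0.0728). The locus at chr12:64207886-64214083, 1249 kb out beside Lrfn5, had 10.5, 60.1 and 40.9 and then 0, 0 and 5.22 (-4.07, SE 0.89), and likewise entered through day 0 alone.

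Among the other loci matched to known RNAs, 4930431F12Rik (chr5:45364704-45371349) had no read at day 0 and 31.4, 46.1 and 31.3 normalized counts at day 6, at least 12.5-fold above the day 0 floor, and entered the test through day 6 alone. It lies 174 kb from Ldb2, an adaptor of LIM domain factors, which rose from 8.96 ± 7.50 to 156 ± 84.7 (SD, n = 3 each; log2 change 4.17, SE 0.68, limma's adjusted p = 0.00169). D330037F02Rik (chr9:115575096-115592248) rose from 6.98, 12.4 and 7.98 to 225, 210.2 and 163 (4.33, SE 0.35, limma's adjusted p = 5.67e-05), with no overlap. Gm34278 rose by 2.35 (SE 0.49, limma's adjusted p = 0.00553). Gm47336, between Fgf10, a growth factor, and Nnt, had 20.1, 51.8 and 21.9 normalized counts at day 0 and 1.01, 6.15 and 2.09 at day 6, while Fgf10 rose by 2.24 (SE 0.35, limma's adjusted p = 0.00131). Gm29895 had 21.8, 92.2 and 60.8 and then 6.08, 9.23 and 4.18. Its neighbour Ttc29 fell by 1.87 (SE 0.32, limma's adjusted p = 0.00197), while 4933431K23Rik on its other side rose by 3.11 (SE 0.92, limma's adjusted p = 0.0252). Both Gm47336 and Gm29895 reached 10 counts at day 0 alone and had to differ to be tested. Gm44442 fell by 2.05 (SE 0.34, limma's adjusted p = 0.0017) beside Prok2, a secreted signal, which fell by 2.89 (SE 0.47, limma's adjusted p = 0.0016). Gm11734 fell by 2.01 (SE 0.48, limma's adjusted p = 0.0104), while Sept9, 161 kb away, rose by 0.94 (SE 0.16, limma's adjusted p = 0.0022). Gm33222 fell by 1.42 (SE 0.34, limma's adjusted p = 0.0102), a call lost without day 6 replicate 1 (0.0545).

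Where a desert locus and its nearest annotated neighbour were both called, rising loci mostly shared the neighbour's direction and falling loci split about evenly. Both were tested for 231 desert loci, and both were called for 70. The direction was the same in 43 of these (61.4%), with 16 pairs both higher and 27 both lower. In 25 the desert locus was lower and the neighbour higher, and in 2 the reverse. For intergenic loci within 50 kb both were called in 303 cases and had the same direction in 252 (83.2%). These shares move with the balance of higher and lower calls in each group, their difference was not tested, and some loci share a neighbour.

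Desert loci also lay near each other. With gaps of at most 100 kb, which leave no room for an annotated locus between them, 143 loci formed 59 clusters, 40 of 2 loci, 15 of 3, 3 of 4 and 1 of 6, and 291 stood alone. The 84 neighbouring pairs within clusters were a median of 12.8 kb apart. Of these 37 were on the same strand, 12 of them within 10 kb, 25 diverged, 17 converged and 5 overlapped. In 20 pairs both loci were called, and in all 20 the direction was the same, 16 lower and 4 higher at day 6, in a group where 73.8% of all calls were lower. In 11 of the 20 pairs both loci had at least 10 counts in a library of each stage, 9 pairs lower and 2 higher. Of the 20, 9 pairs were on opposite strands and 7 were over 10 kb apart, but 8 were on the same strand within 10 kb, where pieces of 1 transcript may have been assembled as 2 loci, and 4 overlapped. No cluster held a higher and a lower call together: 33 held lower calls alone, 11 higher calls alone. Many of these held only 1 call, however, and a single call cannot be mixed. Among clusters with at least 2 tested loci, all tested loci were lower in 9 and higher in 2.

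The largest cluster, of 6 loci over 165 kb at chr5:118789034-118954325, lies between 2410131K14Rik and Med13l, a subunit of the Mediator kinase module. Of its 5 tested loci 4 were called lower, on both strands, but 3 of these 4 reached 10 normalized counts at day 0 alone and had to differ to be tested. The fourth, at chr5:118858944-118860312, had 28.8, 28.0 and 68.8 at day 0 and 9.13, 10.3 and 6.26 at day 6 (log2 change -2.06, SE 0.47, limma's adjusted p = 0.00796). The log2 changes of the 3 were -3.55, -4.28 and -3.49, and the last shares 21.5% of its exonic bases with another locus. The one at chr5:118909312-118913482 with up to 5 exons, had 24.4, 17.6 and 30.9 normalized counts at day 0 and 0, 0 and 1.04 at day 6. The one that did not pass, at chr5:118824330-118829274, had 75.02, 8.29 and 33.9 and then 10.1, 4.10 and 14.6 (limma's adjusted p = 0.133, 0.014 without day 0 replicate 2, and 0.0429 with DESeq2). Med13l fell by 0.91 (SE 0.13, limma's adjusted p = 0.000744), and 2410131K14Rik was at 3991 ± 1009.8 and 5594 ± 403 and did not pass (limma's adjusted p = 0.0615).

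In a cluster of 4 loci at chr10:66294115-66390676, beside Reep3, all 4 fell. The most abundant, at chr10:66338366-66390676 on the minus strand, went from 1635, 1128 and 1554 to 537, 493 and 532 normalized counts (log2 change -1.45, SE 0.22, limma's adjusted p = 0.00111). A locus within its span on the same strand fell by 2.17 (SE 0.29, limma's adjusted p = 0.000614), and one on the plus strand by 1.79 (SE 0.39, limma's adjusted p = 0.00669). The fourth, at chr10:66294115-66307587, fell by 1.75 (SE 0.47, limma's adjusted p = 0.0176), a call lost without day 6 replicate 2 (0.0666) or day 6 replicate 3 (0.0657). Reep3 was at 9572 ± 4781 and 11252 ± 322 and did not pass (limma's adjusted p = 0.377).

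The cluster of 4 at chr17:15266140-15380897, beside Ermard, gave 1 call. Its plus strand locus at chr17:15354832-15380897 fell from 1548, 457 and 1486 to 336, 154 and 255 normalized counts (log2 change -2.10, SE 0.51, limma's adjusted p = 0.0105; 0.0505 without day 0 replicate 3). It shares 79.0% of its exonic bases with other loci and overlaps Gm5091 on the opposite strand, which shares 95.6% and was too low to test, so the division of reads between them is uncertain. Gm35455 had 118, 74.6 and 13.96 at day 0 and 40.6, 36.9 and 91.9 at day 6, with overlapping stages (limma's adjusted p = 0.97). Ermard rose by 0.66 (SE 0.17, limma's adjusted p = 0.0124).

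**Figure D5:**
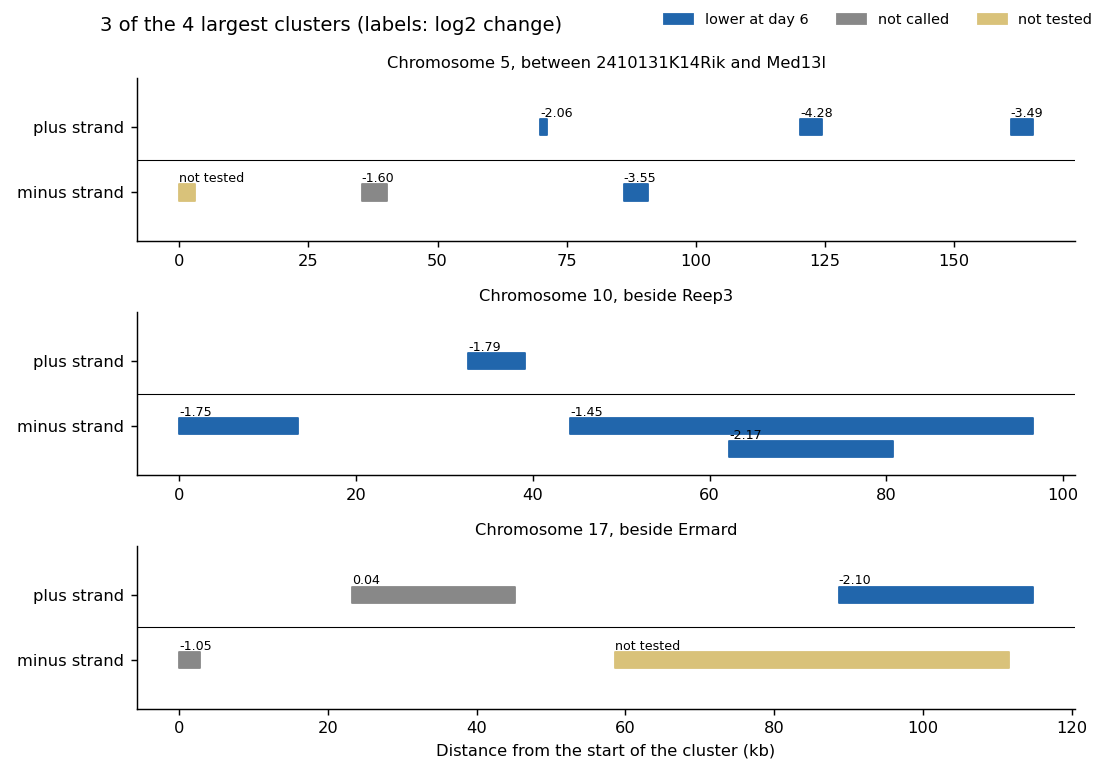
Maps of 3 of the 4 clusters with 4 or more loci, those with the most counts, drawn to scale in kb from the start of each cluster, with plus strand loci above and minus strand loci below the line and log2 changes printed at each locus. Of the 14 loci 9 are lower at day 6, 3 are not called and 2 were not tested; none is higher.

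At the limit of 50 kb, the 2 nearest desert loci inside lie 50.033 kb (chr2:106296342-106309101, log2 change -2.52) and 50.047 kb (chr4:104955430-104957447, too low to test) from an annotated locus. The 2 nearest outside lie at 49.982 kb (chr16:3536944-3542415, -2.07) and 49.954 kb (chr2:170477472-170485348, 2.00).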

How the data were processed

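The authors deposited 1 table of read counts per assembled locus, each library divided by a size factor as the values show, a signal without a unit, and a merged transcript assembly on mm9. The submitters' processing notes name TopHat2 2.0.8, Cufflinks 2.1.1, HTSeq 0.5.4p3 and DESeq, with no role or order. The handling of strand and of shared bases in counting is not stated there. Dividing each column by its smallest step gave whole numbers for 100% of values, and DESeq2 1.42.0 and edgeR 4.0.16 were run on those reads as alternatives; in day 0 replicate 3 the step lies too near 1 to be told from unscaled counts.

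Stages were compared in limma 3.58.1 (R 4.3.3), with trended and robust variance, on log2(normalized count + 1), two-sided, for loci with at least 10 in at least 3 libraries. P-values were adjusted by Benjamini-Hochberg over all 17145 loci at 0.05. Loci that reached 10 at one stage alone had to differ to be tested, so counts are also given without them, a split made after values were seen. Fold changes on this scale understate those of low loci. Limma was checked on simulated data. Exact binomial intervals (95%) and floors of 3 reads per library cover counting error only, since the labels name no molecular identifiers and reads need not be separate molecules. Levels per kb divide normalized counts by exonic length.

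Gene names come from structure: an intron, exon and intron length triple found in 1 GENCODE M21 gene on the same chromosome and strand, kept where the shift between builds matched a neighbouring locus within 1000 nt (17162 of 17186 loci). No coordinate was converted, and positions on mm9 and GRCm38 were not mixed. Loci named in the text were taken by rule: highest per kb, most exons, longest, farthest, restricted to a stage, largest rise and fall at 10 or more in every library, the 3 largest clusters (by loci, then counts) and those nearest the 50 kb limit. Those with the most counts, the 9 largest changes, the remaining restricted loci and called matches were added after values were seen. The members and lists were chosen with earlier results of these data known. Scripts used Python 3.11.15, pandas 2.3.3, numpy 2.4.6, scipy 1.17.1 and matplotlib 3.10.9.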

Additional observations from a re-analysis of the deposited data

How the results depend on the processing

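The number of desert loci called, 183 (48 higher and 135 lower), stayed within 1.5 times of itself in most alternatives and no locus was called in opposite directions. It was 206 with DESeq2 (63.6%, against 48.3% of all loci tested) and 194 with edgeR (59.9%, against 44.0%). Quantile normalization gave 175 (54.0%, against 44.2%) and a weight per stage 163 (50.3%, against 42.1%). With 1 library left out it was 146 to 201 (40 to 54 higher, 106 to 147 lower). Those runs called 45.1% to 62.0% of tested desert loci, and 30.0% to 51.9% of all tested loci. With a minimum of 50 normalized counts it was 83 (26 higher, 57 lower) of 143 tested (58.0%, against 44.8% of all loci tested). A distance limit of 25 kb gave 316 (79 and 237) and one of 100 kb gave 90 (22 and 68), since they hold more and fewer loci. These were 57.4% and 60.4% of the loci tested, against 44.0% of all tested loci. Leaving out loci with over 10% shared exonic bases, an alternative chosen after seeing the data, gave 173 (55.8%, against the same 44.0%). Without the 6 loci within 50 kb of a locus not classed as intergenic it was 178 (55.8%). The shares called in this section include loci that entered the test through one stage alone and had to differ. Without those, the main run called 44.0% of desert loci, against 41.4% of all such loci.

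The 2 loci restricted to day 0 became 1 with limits of 5 and 50, 0 with 10 and 100, 17 with 10 and 20, 6 beyond 25 kb and 0 beyond 100 kb, and 2 to 7 with 1 library left out. The 7 restricted to day 6 became 3 with limits of 10 and 100, 16 with 10 and 20, 12 beyond 25 kb and 3 beyond 100 kb, and 7 to 9 with 1 library left out. The cluster count of 59 was 50 with gaps of 50 kb and 67 with 200 kb.

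Of 53 tested loci named in the text, 41 kept direction and side of the threshold in every alternative run. Signs reversed only for loci that were not called. The locus at chr5:40189426-40190816 was at 0.27, and at -0.30 to 0.75 with 1 library left out. The locus at chr5:92189639-92190486 was at -0.11 with quantile normalization and at -0.0800 to 0.23 with 1 library left out. Gm35455 was at -0.30 with DESeq2, -0.33 with edgeR, -0.000789 with an offset of 5, and at -0.85 to 0.65 with 1 library left out. The cause was not tested.

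Replicate numbers are shared by the stages, but same-numbered libraries correlated at only 0.176, 0.134 and 0.074 in their deviations, so the numbers were not taken to pair them, although each library correlated best with its own number. With the replicate block 200 loci were called (49 higher, 151 lower), 61.7% of those tested against 45.8% of all tested loci. The block also called the loci at chr16:9132620-9258436, chr4:13022458-13044534 and chr5:118824330-118829274 (limma's adjusted p = 0.0159, 0.019 and 0.0281), and a weight per stage called the first (0.0187).

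Low counts limit what can be seen: 110 of 434 loci could not be tested, and loci absent from these libraries' assembly were not analysed here.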
